A study of Mus musculus with 10 samples.

Results

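The choroid plexus genes described here were 10 genes of the epithelium that lines the brain ventricles: Ttr, Clic6, Folr1, Kcnj13, Kl, Aqp1, Enpp2, Otx2, Sostdc1 and Slc4a5. They were taken from the expression table by gene identifier, and 10 of 10 had a row among the 18444 genes of the table. All 10 passed the minimum mean of 10 normalised counts that left 17020 genes for testing. The genes were chosen by name with earlier results of these data in view, and the measured values that entered the choice were the difference of these genes between genotypes and their co-variation across libraries. Their values are therefore given as a description, without tests.

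Each library came from poly-A mRNA of the whole brain of 1 male mouse of the strain C57BL/6N, taken on postnatal day 3. The genotypes were Arid1b heterozygous (HT, 5 mice) and wild-type (WT, 5 mice). HT mice carried, in every cell, 1 allele with a CRISPR/Cas9 edit that deleted exon 5 and is expected to truncate the protein, a subunit of the BAF chromatin remodelling complex, and all mice came from matings of HT males with WT females. Litters and brain dissections were not given in the sources used here, so the replicates are separate mice whose shared litters are unknown. Library totals ranged from 27.2 M to 29.03 M (M, mega) normalised counts, that is, estimated reads divided by a size factor for each library. The library HT 4 stood apart, with a median absolute log2 deviation from the gene means of 0.209 against 0.0772 to 0.108 in the other libraries.

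Arid1b itself was lower in every HT library. Its normalised counts were 2372, 2230.2, 2253, 1505 and 2142 in HT 1 to 5, and 3386, 3155, 3597, 3429 and 3108 in WT 1 to 5, and the groups did not overlap. The log2 fold change was −0.68 ± 0.11 (SE), and it did not pass limma's test after Benjamini-Hochberg adjustment over all genes (adjusted p = 0.390). Without HT 4, the adjusted limma p was 2.52e-04.

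The choroid plexus is a vascular fold in each brain ventricle, covered by a single layer of epithelial cells that joins the ependyma at its base. This epithelium secretes the cerebrospinal fluid, which needs water channels, bicarbonate and chloride carriers and potassium channels in its membranes, and it releases carrier proteins, enzymes and growth factor antagonists into the fluid. Ttr encodes transthyretin, the carrier of thyroid hormone and retinol in that fluid, and is the best known transcript of the tissue. Otx2 encodes a homeodomain transcription factor needed for the choroid plexus to form and to be maintained.

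RefSeq promoter sequences of the build GRCm38.p6 were matched for Kcnj13, Kl, Aqp1, Slc4a5 and Otx2, that is, 5 of the 10 genes. The 250 bases before the transcription start are shown for the starts that overlapped no annotated exon, because OTX2, a factor that binds promoters in this tissue, is itself encoded by 1 of the 10 genes. Capitals mark matches on either strand to 4 motifs: the core bound by OTX2-type homeodomains, TAATCC, the TATA box TATAAA, the CCAAT box and the GC box GGGCGG, each searched also as its reverse complement. No match overlapped a match to another motif in these windows. The windows were chr1:87394730-87394979 on the minus strand for Kcnj13, chr5:150952357-150952606 on the plus strand for Kl, chr6:55336049-55336298 on the plus strand for Aqp1, and chr14:48667645-48667894 on the minus strand for the first start of Otx2.
Kcnj13: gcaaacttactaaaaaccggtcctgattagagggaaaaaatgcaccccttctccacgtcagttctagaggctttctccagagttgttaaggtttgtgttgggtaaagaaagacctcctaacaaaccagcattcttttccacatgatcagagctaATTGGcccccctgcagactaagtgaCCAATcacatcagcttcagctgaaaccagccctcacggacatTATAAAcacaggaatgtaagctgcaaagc
Kl: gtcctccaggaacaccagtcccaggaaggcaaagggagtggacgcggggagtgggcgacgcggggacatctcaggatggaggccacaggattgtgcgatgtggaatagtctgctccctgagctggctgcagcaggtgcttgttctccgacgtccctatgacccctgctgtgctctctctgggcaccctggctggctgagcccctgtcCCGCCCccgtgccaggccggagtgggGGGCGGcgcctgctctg
Aqp1: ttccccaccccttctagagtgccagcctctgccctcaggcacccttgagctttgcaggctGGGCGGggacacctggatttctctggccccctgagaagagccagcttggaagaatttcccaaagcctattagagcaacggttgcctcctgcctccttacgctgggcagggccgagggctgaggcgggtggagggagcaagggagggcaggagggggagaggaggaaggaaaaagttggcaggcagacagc
Otx2: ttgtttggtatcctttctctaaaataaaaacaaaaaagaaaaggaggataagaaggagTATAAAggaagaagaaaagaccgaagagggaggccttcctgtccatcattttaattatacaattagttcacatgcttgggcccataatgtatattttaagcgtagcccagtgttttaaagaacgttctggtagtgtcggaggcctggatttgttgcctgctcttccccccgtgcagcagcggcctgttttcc

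The Kcnj13 window held TATAAA starting 29 bases before the start and CCAAT in both directions, 71 and 96 bases before it. The Kl window held GGGCGG on each strand, 17 and 43 bases before the start, and the Aqp1 window held GGGCGG once, 190 bases before it. The window of the first Otx2 start held TATAAA 192 bases before it. Among all 32851 RefSeq promoter windows of the same length, TAATCC was found in 6.25%, TATAAA in 12.4%, CCAAT in 33.8% and GGGCGG in 32.7%. TAATCC was not in the 4 windows shown, and among the other starts it was found once, upstream of another Otx2 start, 211 bases before it. The G and C content differed between the windows, with 66.8% in Kl, 62.0% in Aqp1, 45.2% in Kcnj13 and 42.0% in the first Otx2 window, beside a median of 52.4% over all promoters.

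Ttr (ENSMUSG00000061808, chromosome 18, 20665280 to 20674321, plus strand) was the most abundant of the 10 genes. Its normalised counts were 8878, 7759, 9013, 8756 and 6181 in HT 1 to 5. In WT 1 to 5 they were 9711, 11505, 9509, 12998 and 12180.3. The highest HT library lay just below the lowest WT library, and the groups did not overlap. The HT mean of 8118 ± 1190.3 (SD, n = 5) was 72.6% of the WT mean of 11181 ± 1530.2 (SD, n = 5). On the log2 scale HT differed from WT by −0.46 ± 0.11 (SE). Ttr took 0.0214% of all normalised counts in HT 5, the lowest library, and 0.0458% in WT 4, the highest. Because whole brains were sequenced, fewer choroid plexus cells and less RNA per cell cannot be told apart, for Ttr or for any gene below.

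The groups did not overlap in 1 of the 10 genes, Ttr. Over all genes tested the groups were apart in 0.629%, and apart with HT lower in 0.347%. Since the genes were picked for this contrast, nothing is read from the difference. A log2 fold change at or below that of Ttr was found in 1.97% of all genes tested.

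**Figure D1:**
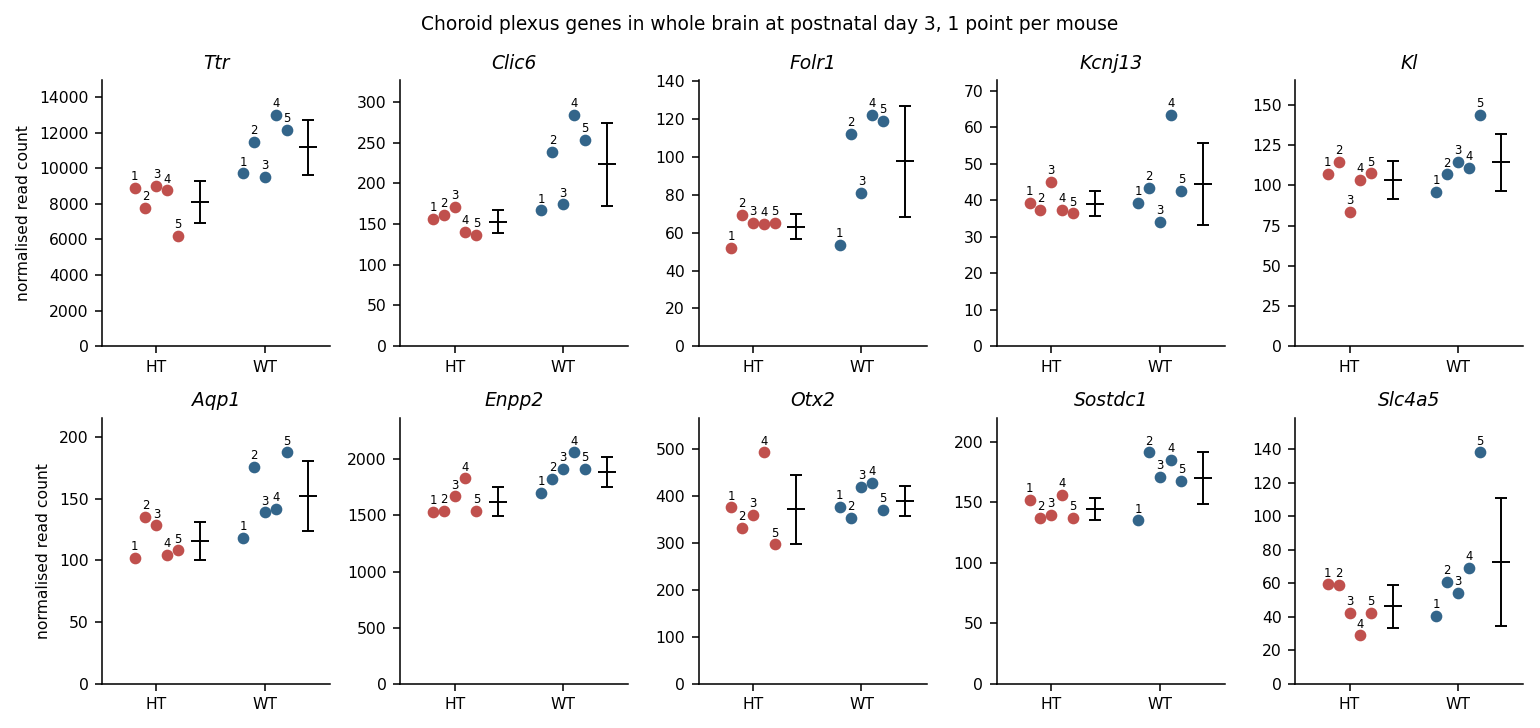
Normalised read counts (y axis, linear from 0) of the 10 choroid plexus genes in HT and WT mice, 1 panel per gene. Each numbered point is the library of that replicate number and the bar is the mean ± SD of 5 mice. Ttr is the gene whose groups do not overlap. In Clic6, Folr1 and Aqp1 the libraries WT 2, WT 3, WT 4 and WT 5 lie above all HT libraries, while WT 1 lies among the HT libraries. WT 3 is only just above them in Clic6 and Aqp1.

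The genes that move water and ions followed the same direction with overlapping groups. Aqp1 (ENSMUSG00000004655, chromosome 6, 55336432 to 55348555, plus strand) encodes aquaporin-1, the water channel of the apical membrane. Its normalised counts were 102, 135, 128, 105 and 108 in HT 1 to 5, and 119, 176, 139, 142 and 188 in WT 1 to 5. WT 2 and WT 5 were the highest libraries, and WT 1 lay inside the HT range. HT mice averaged 116 ± 15.2 and WT mice 153 ± 28.4 (SD, n = 5 per genotype), with a log2 fold change of −0.39 ± 0.14 (SE).

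Slc4a5 (ENSMUSG00000068323, chromosome 6, 83219828 to 83304945, plus strand) encodes the sodium bicarbonate cotransporter NBCe2. HT 1 to 5 had 59.3, 58.9, 42.0, 28.8 and 42.5 normalised counts, and WT 1 to 5 had 40.4, 60.8, 54.0, 69.1 and 138. It was the most variable of the 10 genes, with a ratio of 4.81 between the highest and the lowest library. The value in WT 5 stood alone, and the other WT libraries lay inside or little above the HT range. The log2 fold change was −0.55 ± 0.30 (SE), and −0.29 without WT 5.

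Kcnj13 (ENSMUSG00000079436, chromosome 1, 87386363 to 87394729, minus strand) encodes the inward rectifier potassium channel Kir7.1. At this low level, HT 1 to 5 gave 39.4, 37.4, 45.0, 37.3 and 36.4 normalised counts and WT 1 to 5 gave 39.3, 43.4, 34.0, 63.4 and 42.5. WT 4 was the one library well above the rest, and the lowest value was also in a WT library, WT 3. The log2 fold change was −0.16 ± 0.18 (SE), smaller than its error, and without WT 4 it was −0.022.

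Clic6 (ENSMUSG00000022949, chromosome 16, 92485736 to 92541243, plus strand) encodes a member of the chloride intracellular channel family. Normalised counts were 156, 161, 171, 140.2 and 136 in HT 1 to 5, and 167, 238, 174, 284 and 253 in WT 1 to 5. WT 2, WT 4 and WT 5 were high, whereas WT 1 and WT 3 lay within a few counts of HT 3. The HT libraries were close to each other, with a mean of 153 ± 14.6, and the WT libraries were spread, with a mean of 223 ± 51.0 (SD, n = 5 per genotype), and the log2 fold change was −0.52 ± 0.15 (SE).

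Among the genes for uptake and secreted factors, Folr1 (ENSMUSG00000001827, chromosome 7, 101858331 to 101870788, minus strand) encodes folate receptor alpha, which carries folate across the epithelium into the fluid. The HT libraries 1 to 5 had 51.8, 69.3, 65.1, 64.4 and 65.0 normalised counts, and the WT libraries 1 to 5 had 53.6, 112, 80.9, 122 and 119. The same 3 WT libraries as for Clic6 were high, and WT 1 was at the level of the lowest HT library. HT mice averaged 63.1 ± 6.62 and WT mice 97.6 ± 29.6 (SD, n = 5 per genotype), with a log2 fold change of −0.56 ± 0.21 (SE), the most negative of the 10 genes. Folr1 shares 1.57% of its 31-base stretches with other annotated transcripts, so few of its reads could be assigned elsewhere.

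Enpp2 (ENSMUSG00000022425, chromosome 15, 54838901 to 54952892, minus strand) encodes autotaxin, the secreted enzyme that makes lysophosphatidic acid. Enpp2 was at 1531, 1541, 1671, 1830.2 and 1544 normalised counts in HT 1 to 5, and at 1701, 1824, 1917, 2063 and 1915 in WT 1 to 5. It had the narrowest range of the 10 genes, and of the HT libraries only HT 4 exceeded a WT library. HT mice averaged 1624 ± 129 and WT mice 1884 ± 133 (SD, n = 5 per genotype), with a log2 fold change of −0.22 ± 0.066 (SE). Enpp2 is also transcribed in oligodendrocyte precursors and other cells of the brain, so its whole-brain value is not of the choroid plexus alone.

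Sostdc1 (ENSMUSG00000036169, chromosome 12, 36314139 to 36318452, plus strand) encodes a secreted antagonist of BMP and Wnt signals. In HT 1 to 5 it had 152, 137, 139.7, 156 and 137 normalised counts, and in WT 1 to 5 it had 135, 191, 171, 185 and 168. Apart from WT 1, which was the lowest of all 10 libraries, the WT values lay above every HT value. The log2 fold change was −0.23 ± 0.11 (SE). Kl (ENSMUSG00000058488, chromosome 5, 150952607 to 150993817, plus strand) encodes klotho, a membrane and shed protein that acts as a co-receptor for FGF23. Kl was at 107, 114, 83.6, 103 and 108 normalised counts in HT 1 to 5, and at 95.9, 107, 115, 111 and 144 in WT 1 to 5. The Kl values were mixed between genotypes, with a log2 fold change of −0.14 ± 0.13 (SE) that was −0.057 without WT 5.

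Otx2 (ENSMUSG00000021848, chromosome 14, 48657677 to 48673819, minus strand), the transcription factor of the set, differed least between genotypes. Otx2 was at 375, 332, 359, 492 and 296 normalised counts in HT 1 to 5, and at 377, 352, 419, 428 and 371 in WT 1 to 5. Both the highest and the lowest library were HT, namely HT 4 and HT 5. The log2 fold change was −0.087 ± 0.12 (SE), and it was −0.19 without HT 4 and −0.011 without HT 5. Otx2 is also transcribed in midbrain and cerebellar precursors, and 3.23% of its 31-base stretches are shared with Gm49154, an overlapping gene on the same strand.

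All 10 genes had a log2 fold change below 0, with a median of −0.31, beside 53.6% of all genes tested and a median of −0.0074 over all genes. The direction was part of what the genes were chosen for. No gene of the table passed the adjusted limma test between genotypes (0%), while 3.41% had an unadjusted p under 0.05. Leaving out each library in turn, the median of the 10 genes ranged from −0.39 without WT 1 to −0.26 without WT 5, and every gene stayed below 0 in each of these fits.

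Across the 10 libraries, the difference between genotypes was laid over differences between mice of one genotype. The mean log2 deviation of the 10 genes from their own means was 0.40 in WT 5, 0.35 in WT 4 and 0.21 in WT 2. It was near 0 in WT 3 (0.032) and at −0.16 in WT 1, which was within the HT range of −0.28 (HT 5) to −0.10 (HT 2). WT 4 was among the 3 highest libraries for 9 of the 10 genes, and WT 2 and WT 5 were so for 7 each. HT 4 and HT 5 were among the 3 lowest for 7 genes each. The 5 HT mice thus had a narrow band of low values, and the WT mice reached from that band upward.

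**Figure D2:**
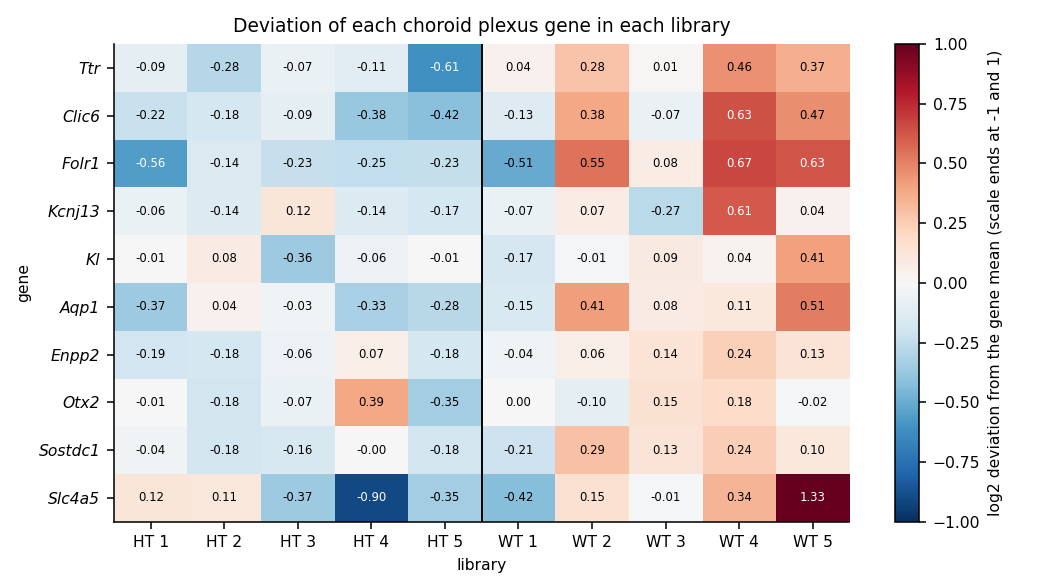
Log2 deviation of each choroid plexus gene (rows) in each library (columns) from the mean of that gene over 10 libraries, in color and printed in each cell. The black line divides HT from WT. WT 2, WT 4 and WT 5 are mostly red, and the HT libraries and WT 1 mostly blue. Otx2 and Slc4a5 depart from the other genes in HT 4, in opposite directions.

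How closely the genes followed Ttr was measured by Pearson's r of log2(value + 1) over the 10 libraries, which share size factors and the genotype difference. Clic6 was nearest, with r = 0.90 (Spearman's rho 0.93), and it had rank 5 among all 17019 other genes tested. Enpp2 had r = 0.81, Sostdc1 0.76 and Folr1 0.72. Aqp1 had 0.68, Kcnj13 0.67, Slc4a5 0.57 and Otx2 0.47. Kl was farthest from Ttr, with r = 0.30 and rho = 0.16. The median of the 9 genes was 0.68, and the median over all genes was 0.0074, with 5% of genes above 0.537.

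Of the 9 genes, 7 had r over 0.5 and 4 had r over 0.7, where all genes tested gave 6.45% and 1.18%. The co-variation was used to choose the genes, and these shares describe the choice. With the mean of each genotype removed, the median r was 0.48, while Clic6 kept 0.77, Kcnj13 had 0.68, and Kl had 0.016. Without HT 5 and WT 4, the libraries farthest from the median of Ttr, the median r was 0.68 over 8 libraries. In these 8 libraries r was −0.085 for Otx2 and 0.47 for Kcnj13. HT 5 and WT 4 were the lowest and highest libraries of Ttr, so leaving them out also narrows its range. Otx2 had r = 0.75 when HT 4 alone was left out.

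The genes also differed in how far they moved with Ttr. The log2 slope on Ttr was 1.04 for Clic6, 1.05 for Folr1 and 1.06 for Slc4a5. Slc4a5 and Folr1 also scattered more than Ttr, so that a slope near that of Ttr does not mean an equal spread. It was 0.64 for Aqp1, 0.52 for Kcnj13 and 0.45 for Sostdc1. Enpp2 (0.39), Otx2 (0.30) and Kl (0.19) had the flattest slopes. The part of sources elsewhere in the brain, named above for Enpp2 and Otx2, was not tested. Over the 45 pairs of the 10 genes, r was positive in 41, with a median of 0.57. The closest pairs after Ttr and Clic6 were Clic6 with Folr1 (0.89) and Folr1 with Aqp1 (0.86), and the lowest r was −0.19, between Otx2 and Slc4a5.

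The spread between mice was compared with what counting alone would give if 1 normalised count stood for about 1 read. For Ttr the SD over the 10 libraries was 0.32 on the log2 scale, 21.6 times the counting SD of 0.0147. For Clic6 it was 0.36 beside 0.105, for Folr1 0.46 beside 0.161, and for Slc4a5 0.59 beside 0.187. For Kcnj13 the SD of 0.25 was close to its counting SD of 0.223, so that most differences between single Kcnj13 values could not be resolved at this depth. The median SD over all genes tested was 0.16. Of 1171 genes with a mean of at least 5000, 18 (1.54%) varied as much as Ttr or more.

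Levels were compared between genes per kilobase of the median coding transcript length. The mean level over 10 libraries was 8136 normalised counts per kilobase for Ttr, 648 for Enpp2 and 223 for Otx2. Ttr was above Enpp2, and Enpp2 above Otx2, in 10 of 10 libraries. Folr1 (97.2), Clic6 (91.1) and Sostdc1 (88.4) followed and were not separated from each other, since Folr1 exceeded Clic6 in 7 libraries and Clic6 exceeded Sostdc1 in 6. Kcnj13 (54.6) and Aqp1 (51.1) were likewise not separated, with Kcnj13 higher in 6 of 10 libraries. Kl (21.3) and Slc4a5 (11.8) were the lowest, each below the gene before it in every library. With the longest transcript in place of the median one, the middle of the order changed to Sostdc1 (88.4), Folr1 (61.2), Aqp1 (51.1), Clic6 (50.1) and Kcnj13 (32.9).

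A further 54 genes known from the choroid plexus, none of them among the 10, were listed by role, and 52 were tested. None passed the adjusted limma test (0 of 52, adjusted p 1.00 for each), and at an unadjusted p under 0.05 there were 4 genes lower in HT and 0 higher, where all genes tested gave 1.93% and 1.47%. The number at that p was 13 without HT 4, 8 without WT 1 and 2 without WT 4. Their log2 fold changes were below 0 in 35 and above 0 in 17, with a median of −0.076. Their median r with Ttr was 0.33, with 40 of 52 above 0, where 51% of all genes tested were above 0. In 15 of the 52 r was over 0.5 and in 9 over 0.7, where all genes tested gave 6.45% and 1.18%. The 10 genes were chosen for both measures, and the wider list was drawn up with earlier results of these data known. Neither these shares nor the distance between the 10 genes and the wider list is thus a result.

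The 4 genes were Pcolce2, Cldn2, Prr32 and Cab39l. Cldn2 encodes claudin-2, a tight junction protein that lets cations and water pass between the epithelial cells. Its normalised counts were 49.1, 26.3, 52.7, 32.2 and 20.3 in HT 1 to 5 and 36.6, 50.6, 74.7, 79.6 and 59.0 in WT 1 to 5, with a log2 fold change of −0.75 ± 0.29 (SE). Pcolce2, a secreted enhancer of procollagen processing, had 68.9, 37.1, 34.6, 44.3 and 42.8 in HT 1 to 5 and 62.4, 71.7, 85.5, 72.6 and 105 in WT 1 to 5 (log2 fold change −0.81 ± 0.20 SE). The groups overlapped in both genes, through HT 1 for Pcolce2 and through HT 1 and HT 3 for Cldn2.

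Prr32 had the second highest r with Ttr of all genes tested (0.93) and a log2 fold change of −0.74 ± 0.30 (SE). Its normalised counts were 16.3, 14.9, 12.5, 18.4 and 7.74 in HT 1 to 5 and 15.1, 29.2, 16.5, 28.2 and 31.7 in WT 1 to 5. WT 2, WT 4 and WT 5 were high in Prr32, as in Clic6 and Folr1, and WT 1 and WT 3 lay within the HT range. Cab39l, which encodes a scaffold protein of the LKB1 kinase complex, had a log2 fold change of −0.21 ± 0.072 (SE) and r = 0.73.

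By role, the 12 other ion, water and solute transport genes had a median fold change of −0.078 (log2) and a median r with Ttr of 0.37. The most abundant, Slc29a4 (log2 fold change −0.017), Slc4a10 (−0.00026) and Slc12a2 (−0.067), a monoamine transporter, a sodium bicarbonate carrier and the sodium, potassium and chloride cotransporter NKCC1, also work in neurons or glia. Without HT 4 they were at 0.031, 0.069 and −0.024. The 11 other secreted and matrix genes had a median of −0.16 and a median r of 0.49. Among them Igf2, a growth factor of the fluid, had a log2 fold change of 0.022, Igfbp2, its binding protein, −0.031, and Col9a3, a collagen chain, −0.11. Without HT 4 these were −0.091, −0.17 and −0.18.

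The 13 receptor and enzyme genes had a median fold change of −0.044 (log2) and a median r of 0.40, and the 7 transcription genes had −0.064 and 0.28. Htr2c, the serotonin receptor whose transcript is plentiful in choroid plexus but also in neurons, was higher in HT by 0.13 ± 0.064 (SE, adjusted limma p = 1.00), with r = −0.39. The most abundant of the receptors and enzymes were Trpm3, a cation channel (−0.030), Htr2c and Ace, the angiotensin-converting enzyme (−0.031), and of the transcription genes Rfx3 (−0.064), Rfx2 (−0.11) and Msx1 (−0.33). Without HT 4, Trpm3 was at 0.098 and Rfx3 at 0.070. Rfx2 was at −0.017 without HT 2 and −0.032 without WT 2, and Trpm3 was at 0.0017 without WT 4. The 9 junction and keratin genes had a median of 0.059 and a median r of 0.053, with Spint2 at 0.081, Cgnl1 at 0.12 and F11r at −0.084. Without HT 4, Spint2 was at −0.015 and F11r at −0.24, and F11r was at 0.046 without HT 5 and at 0.015 without WT 3. The junction list was thus the one of the 5 lists whose median was not below 0.

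**Figure D3:**
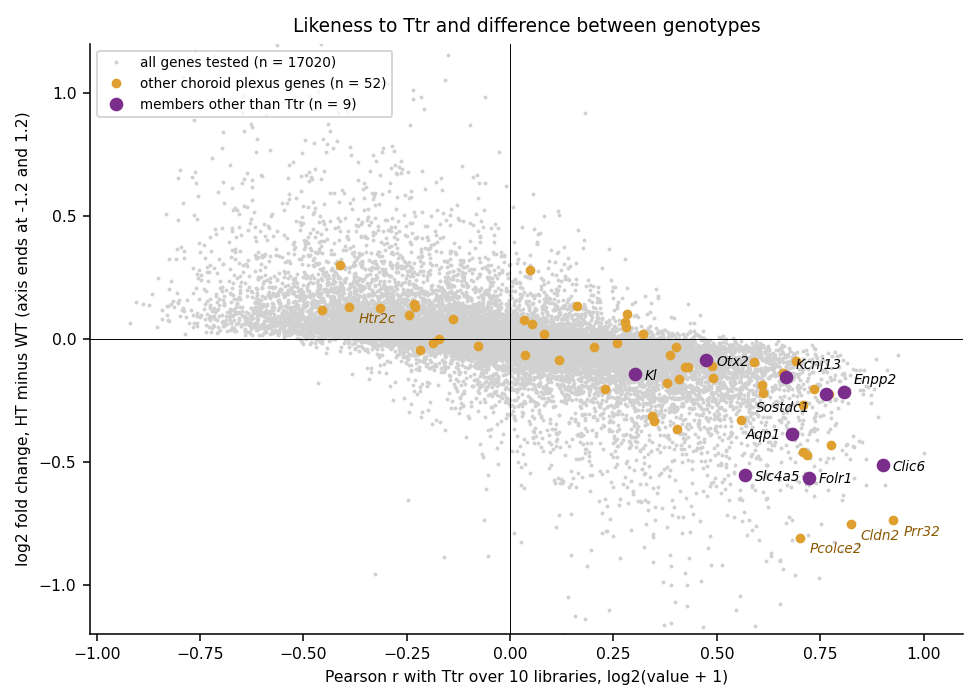
Pearson r with Ttr over 10 libraries (x axis) and log2 fold change of HT minus WT (y axis) for 17020 genes tested (gray), 52 other choroid plexus genes (orange) and the 9 described genes other than Ttr (purple). A further 51 genes lie beyond the y axis, which ends at −1.2 and 1.2. The purple points all lie at r above 0 and a fold change below 0, and Prr32, Cldn2 and Pcolce2 lie near them.

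Genes that act on the ligands or products of the 10 genes were listed as well. For transthyretin, 11 carriers, transporters and receptors of thyroid hormone and retinol had a median fold change of 0.00086 (log2), with 0 genes at an unadjusted p under 0.05. Thra, the thyroid hormone receptor alpha, was at −0.0020. For Folr1, 9 genes of folate transport and metabolism had a median of −0.083. Of these Mthfd1, a folate-dependent enzyme of 1-carbon metabolism, had groups that did not overlap (1 of 9 genes, beside 0.347% of all genes tested with HT lower), with 821 to 866 normalised counts in HT and 873 to 979 in WT and a log2 fold change of −0.14 ± 0.051 (SE). It did not pass the test over all genes (limma, adjusted p = 1.00).

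For autotaxin, 8 receptors and phosphatases of lysophosphatidic acid had a median of −0.016, with Plpp3 at −0.0039 and Plpp1 at 0.071. For Sostdc1, 9 genes, BMP ligands and antagonists and the membrane receptor Lrp4, had a median of 0.012, with Lrp4 at −0.011 and Bmp7 at −0.039. None of the genes in these 4 lists passed the adjusted limma test. No difference was thus called for the partners of these ligands, as none was called in the choroid plexus lists.

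Because a whole brain can come with parts of neighboring tissues, markers of 9 other tissues and cell types were followed beside the 10 genes. For ependymal and cilia genes, 13 of 13 tested, the median log2 fold change was 0.0018, and their summed level was 1910 to 2077 normalised counts in HT and 1833 to 2381 in WT. Foxj1, the regulator of motile cilia, was at 0.11 and Spag6l at −0.15. Endothelial genes, 10 of 10 tested, had a median of −0.032 and sums of 7318 to 8828 in HT and 7642 to 8221 in WT, with Kdr at −0.047 and Cldn5 at −0.026. Single ependymal genes lay on both sides, from −0.47 to 0.45, and 10 of the 13 had r with Ttr above 0. The part of ependymal or vascular tissue in the results was not tested.

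Meningeal and fibroblast genes, 11 of 11 tested, had a median of −0.051, but WT 3 stood far above the rest with 17074 normalised counts of Col1a1 and 12174 of Col1a2, beside 1880.5 to 5249 and 2371 to 5159 in the other libraries. WT 3 was near the mean for the 10 choroid plexus genes. Cerebellar genes, 10 of 10 tested, had a median of −0.11, with sums of 7207 to 12373 in HT and 9066 to 11445 in WT, with Zic1 at −0.20 and Cbln1 at 0.034. The cerebellar list was highest in HT 4 and lowest in HT 5, which were also the highest and lowest libraries of Otx2. Its part in the Otx2 values was not tested.

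Pituitary genes were high in WT 2, and Gh also in WT 5. Gh, growth hormone, was at 1476 normalised counts in WT 2 and 838 in WT 5, at 42.2 in HT 3 and 18.3 in HT 4, and listed at 0 in the other 6 libraries. Pomc was at 865 in WT 2 and at 15.7 to 41.5 in the others. The summed level of the 4 pituitary genes tested, of 10 listed, was 21.8 to 87.9 in HT and 16.0 to 2525 in WT. In WT 4, the highest library for Ttr and 4 more of the 10 genes, Gh was listed at 0 and Pomc was at 20.4. Without WT 2 and WT 5, a setting added after seeing the data, the median log2 fold change of the 10 genes was −0.21. Aqp1 was then at −0.21, Folr1 at −0.36 and Slc4a5 at −0.24, and all 10 genes were below 0. The part of the pituitary signal in the results was not tested.

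Liver is the other main source of transthyretin. Of 10 liver genes, 3 were measured. Alb, albumin, was at 1.87 to 22.5, Apoa1 at 4.28 to 14.5 and Apoa2 at 4.99 to 22.8 normalised counts, beside 6181 to 12998 for Ttr. Alb was highest in WT 4 and next in WT 5 (8.26). Apoa1 and Apoa2 were highest in HT 4, and Apoa1 was lowest in WT 5. The part of liver tissue in the results was not tested. Retinal pigment epithelium shares several of the 10 genes, including Ttr, Otx2, Enpp2 and Kcnj13. Of 12 eye and pigment genes 8 were measured, and 7 were tested, with a median log2 fold change of −0.28 and 5 of 7 below 0. Rpe65, Rgr, Tyr and Mlana were on the list but had no measured values. The summed level of the 7 tested genes was 818 to 960 in HT and 904 to 1018 in WT. Rlbp1, which glial cells also use, made up most of that sum (667 to 827), and Best1 was at 22.3 to 53.4. The other genes of this list were named after their values were seen. Mfrp had r = 0.80 with Ttr and a log2 fold change of −0.66, Pmel was at −0.45 and Dct at −0.39, and Best1 was at 0.44. Tyrp1, a pigment enzyme below the minimum mean, was at 15.4 in WT 2, 10.8 in WT 4 and 19.5 in WT 5, and at 1.34 to 6.68 in the other 7 libraries. The libraries high in Tyrp1 were thus the libraries high in Clic6 and Folr1, but other genes of this list had other orders. Dct was lowest in WT 5 (2.59), Best1 was lowest in WT 4 (22.3), and Pmel was higher in WT 3 (37.0) than in WT 4 (15.2). Mfrp was highest in WT 3 (58.8), followed by WT 4 (53.2) and WT 5 (51.0). The part of eye or pigment tissue in the results was not tested.

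Of 9 pineal genes, 6 were measured and 3 were tested. The sums of the 3 tested genes were 50.9 to 138 in HT and 68.4 to 119.6 in WT (Tph1 at 12.9 to 84.9 and Rom1 at 25.2 to 45.1). For red blood cell genes, 6 tested of 8, the median log2 fold change was 0.48, with Hbb-bs at 2074 to 4619 in HT and 1680.4 to 4753 in WT and Hba-a2 at 1946 to 4358 and 1415 to 4542. Their r with Ttr was below 0 in 6 of 6, but the highest sum was in WT 5 and the lowest in WT 4, which were both high in the choroid plexus genes. Their part in the results was not tested.

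**Figure D4:**
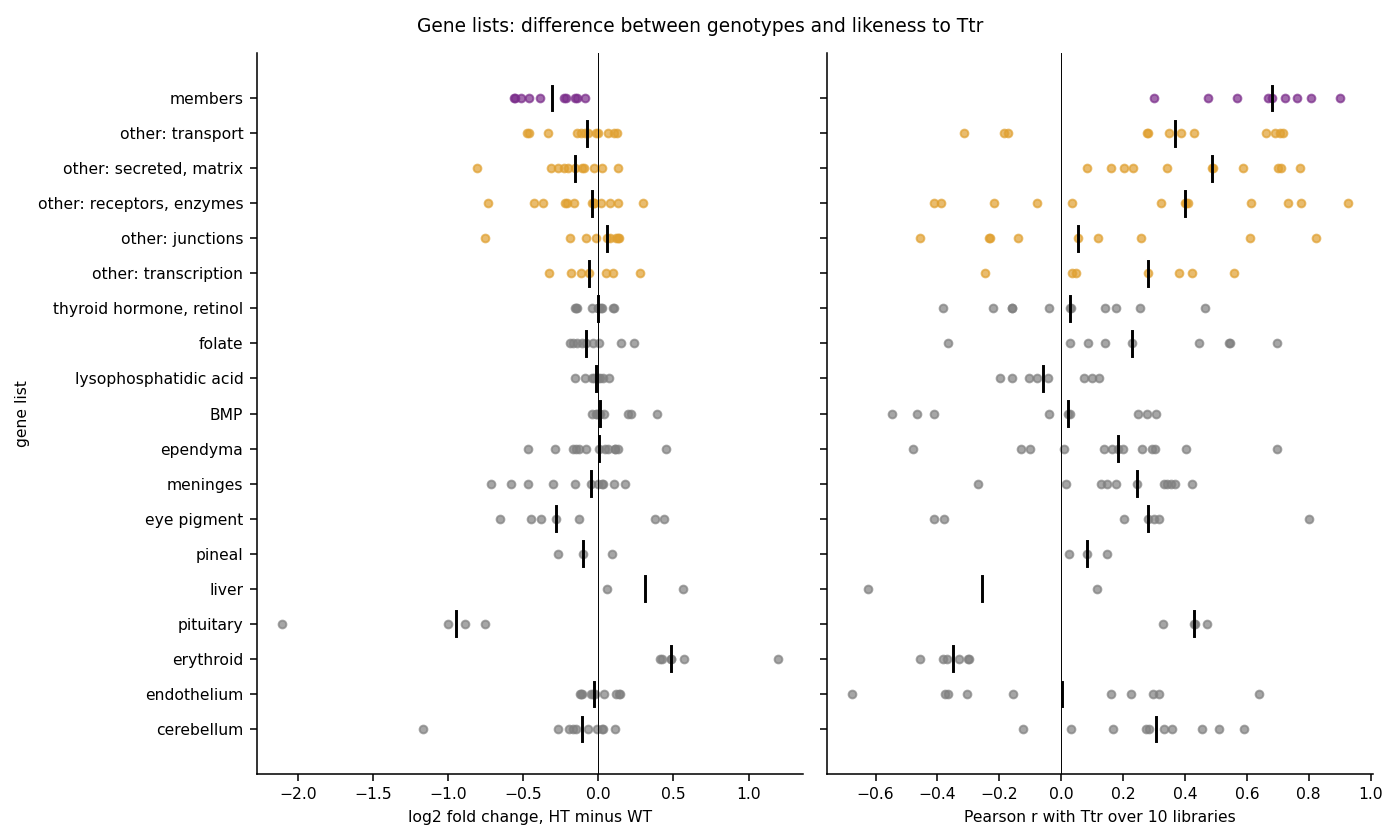
Log2 fold change of HT minus WT (left) and Pearson r with Ttr over 10 libraries (right), 1 point per gene tested, for the 10 described genes (purple), the 5 lists of other choroid plexus genes (orange) and the lists of ligand partners and of other tissues (gray). Black bars are medians. In the left plot the purple points lie below 0 with a median of −0.31, the 4 pituitary genes lie below 0 and the 6 red blood cell genes above it, and the other lists with more than 2 genes lie on both sides of 0.

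The genes whose order over the 10 libraries was most like Ttr were then listed over all genes tested. The 10 nearest genes were Paip2b (r = 0.94), Prr32 (0.93), Fam122a (0.91), Sowahb (0.91), Gm10037 (0.89), Trp53i11 (0.88), Prelp (0.88), Zc3h10 (0.87), Rpl7l1 (0.87) and Rabl3 (0.87), each over 10 libraries. Prr32 was the one of these on a choroid plexus list, and Clic6 would have stood between Sowahb and Gm10037. Most of the 10 were broadly transcribed genes with small differences, such as Paip2b at 2527 to 2809 normalised counts, a ratio of 1.11 between the extremes, where the same ratio was 2.10 for Ttr and 2.08 for Clic6. Sowahb, at 5.91 to 26.7, had the widest range of the 10, with a ratio of 4.52.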

How the data were processed

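Per the study's methods and processing notes, paired-end reads of the whole-brain libraries were quantified with Salmon 1.1.0 on GRCm38 with a GC bias correction and imported to R with tximport. The signal values that the authors deposited are normalised read counts, estimated reads divided by DESeq2 1.30.1 size factors. The annotation release is not given in the sources used here. Values were not whole multiples of 1 read, so count tests were not run.

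Genes were matched to GENCODE M21 (18431 of 18444). Log2(value + 1) was fitted with limma 3.58.1 in R 4.3.3 (limma-trend, robust, two-sided, Benjamini-Hochberg over the 17020 genes with a mean of at least 10, threshold 0.05), with genotype as the one term. Fold changes on this scale understate those of low genes. In simulated data for HT against WT, with 5 libraries per group, 76 of 100 genes changed 1.5-fold and 97 of 100 changed 2-fold were called. Whether these shares hold for the measured libraries, with HT 4 among them, or for genes of low mean was not tested. In the measured data Arid1b, at a log2 fold change of −0.68, was not called (limma, adjusted p = 0.390). Correlations were taken over 10 libraries. Promoters are RefSeq's, and 31-base stretches came from GENCODE transcripts.

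The 10 genes and all 19 lists were chosen with earlier results of these data known. Besides the 10 genes and Arid1b, the genes named were the 10 most like Ttr, Htr2c, the 3 with the highest mean in each choroid plexus list, any there with an unadjusted p under 0.05, and the 2 with the highest mean in each other list. Some genes that this rule names are not reported here. Alternatives were other pseudocounts (0.5, 5), no filter, a minimum mean of 100, upper quartile and quantile scaling, sample weights, no robust step, the replicate number as a block, and leaving out each library or, added after seeing the data, WT 2 and WT 5.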

Additional observations from a re-analysis of the deposited data

Results flagged for a closer look

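Of 98 groups of 5 libraries checked, 6 held a library far from the other 4 of its genotype, where chance gives about 4.9. HT 4 was that library in 4 of them and HT 1 in 2. Folr1, the folate receptor, was at 51.8 normalised counts in HT 1, with 64.4 in the nearest HT library. Pcolce2 was at 68.9 in HT 1, above the nearest HT value of 44.3, so that for these choroid plexus genes HT 1 stood out in opposite directions. Igfbp2 was at 3219 in HT 4, with 2081 as the nearest HT value. Msx1 was at 136 in HT 4, with 91.4 as the nearest. Trpm3 was at 2710.0 in HT 4, below the nearest value of 4156, and Arid1b was at 1505 in HT 4, below the nearest value of 2142.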

How the results depend on the processing

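The median log2 fold change of the 10 genes stayed below 0 in all 20 alternatives run, from −0.39 without WT 1 to −0.21 without WT 2 and WT 5, a setting chosen after seeing the data. Each gene had a fold change below 0 in every alternative that tested it. Over all genes, 2 genes passed the adjusted limma test with sample weights, and leaving out 1 library gave 0 to 2, with 2 without HT 4. With 1 library left out, the median r with Ttr was 0.626 (without WT 4) to 0.730 (without HT 2), and with quantile normalisation it was 0.600. The median log2 SD was 0.249 to 0.286 with 1 library left out, and 0.203 with a minimum mean of 100, which left 7 of the 10 genes. Among the 52 other choroid plexus genes, the 4 with an unadjusted p under 0.05 became 13 without HT 4, 11 with sample weights, 8 without WT 1, 2 without WT 4, 2 without WT 2 and WT 5, and 1 with a minimum mean of 100.

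Whether the replicate numbers pair the samples is not known. The correlation of deviations within a number was 0.091, 0.084, 0.082, −0.10 and 0.093, with 0 of 5 over 0.1. Of the 10 libraries, 6 correlated best with their own number. With the replicate block, the median r with Ttr was 0.836 and the median log2 SD 0.224. Removing the mean of each number leaves mirrored values in each pair, so the r then rests on 5 independent points. With the block, 0 genes passed the adjusted limma test.

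Values near 40 normalised counts, as for Kcnj13, leave most differences between single libraries within counting error.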
